A study of Mus musculus with 4 samples.

Results

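The Myc, Max and Mxd network was examined in TBV2 mouse embryonic stem cells (ESC) treated with MS-275, an inhibitor of class I histone deacetylases (HDAC). The network was taken as 10 genes named by symbol: the activators Myc and Mycn, their partner Max, the antagonists Mxd1, Mxd3, Mxd4, Mxi1 and Mnt, the large Max partner Mga, and Mlx, which stands in for Max in a parallel branch. All 10 were among the 28250 genes listed in every library, and all 10 were among the 20336 genes tested. The list follows the known roles of these genes, and no value enters the rule for membership. The members were nevertheless chosen with earlier results of these data known. The 4 libraries comprised replicates 1 and 2 of TBV2 cells exposed to solvent for 24 h, and replicates 1 and 2 of TBV2 cells exposed to MS-275 at 5 µM over the same time. TBV2 is a single ESC line, and the labels name no genetic change in either group. All cells were kept with LIF, and the labels describe both a feeder layer and gelatin-coated plates. The labels do not say whether the replicates of a condition were separate cultures, so the spread between these libraries may be technical. The SE and p-values below do not measure that spread alone, since they also draw on the variance of the other genes tested. In the fit with the replicate number as a block, differences shared by a replicate number are taken out. For Mxd1, for example, the SE was 0.28 with the block and 0.54 without it.

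Myc, Mxd and Mnt proteins carry a basic helix-loop-helix leucine zipper (bHLHZip) and bind DNA as dimers with Max, at the E-box CACGTG. Dimers of Myc or Mycn with Max recruit acetyltransferases and other coactivators, whereas dimers of the Mxd proteins, Mxi1 or Mnt with Max recruit the Sin3 corepressor, which carries class I HDAC. Mga joins Max in a Polycomb complex that keeps germline genes silent in ESC. In ESC, Myc and Mycn are known for sustaining growth and self-renewal, and the Mxd genes are known for rising as cells leave the cell cycle and differentiate.

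For each library, a normalized expression value per gene and the positions of the aligned reads were used. The value is a signal made by the authors with Genomatix, and its formula is not given in the sources used here. The alignments of a library numbered between 9785619 and 23467935. In the alignments deposited with replicate 1 of each condition, 53.2% and 54.4% repeated a position and strand already seen, whereas those deposited with replicate 2 held no repeats. On the log2 scale and across 11049 genes (genes are no independent replicates), values correlated, with all alignments counted, better with the alignments of the condition's other replicate (r = 0.901 to 0.926) than with those filed under the same library (r = 0.766 to 0.859). At distinct positions the ranges overlapped (r = 0.847 to 0.914 and 0.766 to 0.872), but for the values of every library the other replicate still gave the higher r. With solvent it was 0.914 against 0.872 (replicate 1) and 0.866 against 0.827 (replicate 2). With MS-275 it was 0.901 against 0.846 (replicate 1) and 0.847 against 0.766 (replicate 2). An exchange of files within a condition leaves the compared groups as they are. Replicate numbers below are those under which each kind of file was deposited, and a value and an alignment count with the same number may not come from one library. Counted at distinct positions, each library had 9122347 to 10973569. Of these, 5608253 to 7346036 lay on exon bases of a single gene (exonic distinct positions), and ratios and levels were scaled to them.

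Of the 10 members, 2 rose with MS-275 in the fit that treats the replicate number as a block, Mxd4 and Mxd1, and none passed in the other direction. This fit was made with limma on log2(value + 0.005) over all genes tested, with Benjamini-Hochberg adjusted p under 0.05 taken as a call. Of all genes tested, 21.0% were called higher and 6.46% lower in it, so 2 of 10 members higher was close to the background. With an unadjusted p under 0.05 in the same fit, 2 members were higher and 0 lower, beside 5876 and 2077 of the 20336 genes tested. Without the block, 0.00492% of all genes tested were called, that is, the single gene Muc3, named after its values were seen, and no member passed. There, 1 member, Mxd4, had an unadjusted p under 0.05 (adjusted p = 0.0904), beside 2974 of the genes tested higher and 564 lower. Over all genes tested the median log2 fold change came to 0.20, and it became -0.01 with median-ratio scaling, so members near or below 0 lay below most genes.

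**Figure D1:**
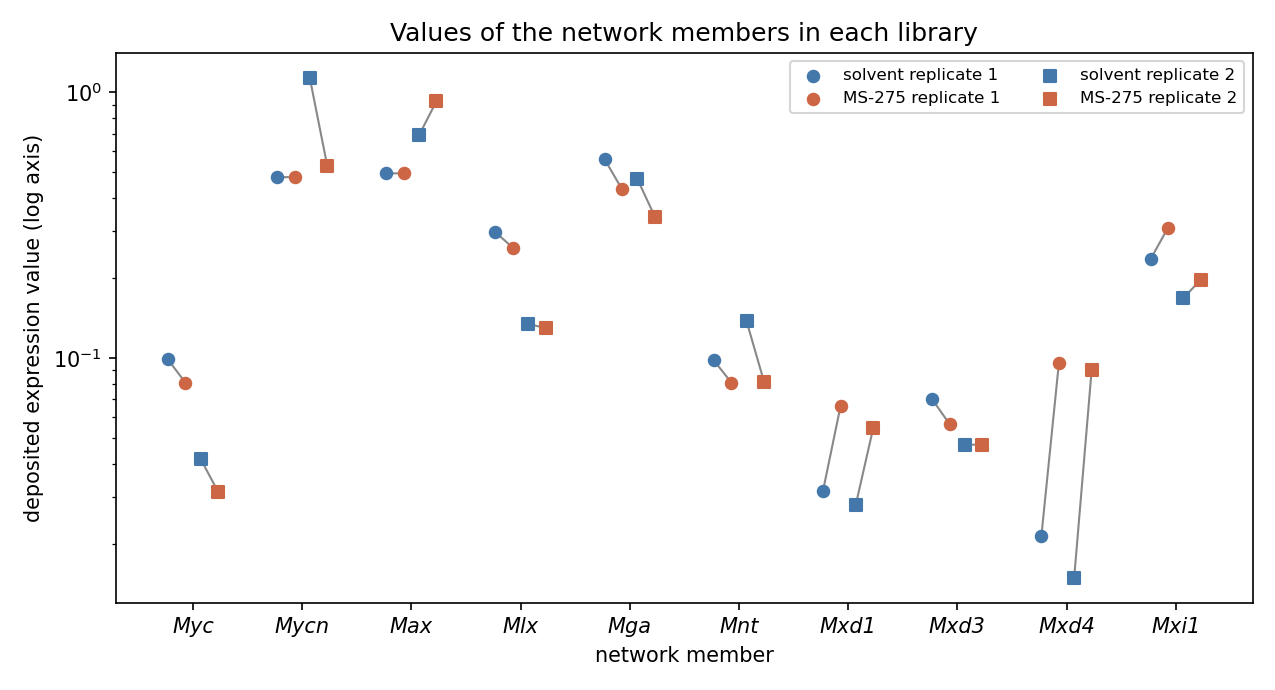
Deposited expression value of each member (log axis) in solvent (blue) and MS-275 (orange) for replicate 1 (circles) and replicate 2 (squares), with lines joining the libraries of a replicate number. The 2 MS-275 points of Mxd4 and Mxd1 lie above both solvent points, those of Mnt and Mga below both, and those of the other members overlap.

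Mxd4, an antagonist that dimerises with Max, showed the largest change of the members. Its value was 0.0215 and 0.0150 with solvent (replicates 1 and 2) and 0.0960 and 0.0903 with MS-275. Both MS-275 libraries lay above both solvent libraries, as they did for 32.3% of all genes tested. The log2 fold change was 2.09 ± 0.28 (SE, n = 2 per group; 95% interval 1.50 to 2.69), with an adjusted p of 6.55e-05 in limma with the block. This is a 4.27-fold rise with 0.005 added to each value. The values alone were 4.46-fold and 6.04-fold higher in replicates 1 and 2. The same was seen in the alignments: 112 and 69 distinct positions on Mxd4 exons with solvent, and 380 and 390 with MS-275. Relative to exonic distinct positions, the ratio of MS-275 to solvent was 4.18 (95% exact binomial interval 3.38 to 5.21) for the alignments of replicate 1. For those of replicate 2 it was 5.07 (3.91 to 6.64). Such intervals cover counting error only.

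Mxd1, the founding antagonist of the family, rose less steeply. Its value was 0.0317 and 0.0281 with solvent and 0.0659 and 0.0547 with MS-275, again without overlap. The log2 fold change was 0.90 ± 0.28 (SE, n = 2 per group; 95% interval 0.31 to 1.49), with an adjusted p of 0.0241 in limma with the block. This is a 1.87-fold rise with 0.005 added to each value. The values alone were 2.08-fold and 1.95-fold higher in replicates 1 and 2. Distinct positions on its exons numbered 217 and 127 with solvent and 310 and 278 with MS-275. The ratios relative to exonic distinct positions were 1.76 (1.48 to 2.10) and 1.96 (1.58 to 2.44). The call was lost with median-ratio scaling (log2 fold change 0.64, adjusted p = 0.0944 in limma with the block) and with quantile normalization (0.59, adjusted p = 0.129). Without the block, the adjusted p of Mxd1 was 0.473 in limma.

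Mnt and Mga were the members whose MS-275 values both lay below both solvent values, as they did for 12.0% of all genes tested. Mnt, the broadly expressed antagonist that competes with Myc for Max in growing cells, had values of 0.0981 and 0.138 with solvent and 0.0810 and 0.0815 with MS-275. The log2 fold change of Mnt was -0.49 ± 0.24 (SE, n = 2 per group; 95% interval -0.99 to 0.01) and missed the threshold in limma with the block (adjusted p = 0.136). Mga had values of 0.560 and 0.472 with solvent and 0.432 and 0.341 with MS-275, with a log2 fold change of -0.42 ± 0.24 (95% interval -0.93 to 0.09, adjusted p = 0.215 in the same fit).

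At distinct positions both passed. Counted this way with limma-voom and the block, 29.7% of genes were called higher and 13.9% lower. Mnt held 721 and 354 distinct positions with solvent and 378 and 306 with MS-275 (log2 fold change -0.51 ± 0.16, adjusted p = 0.0087 in limma). Mga, the longest member, held 5123 and 5582 with solvent and 2961 and 4938 with MS-275 (-0.41 ± 0.09, adjusted p = 0.00071 in limma). In each replicate pair of alignments the ratio of MS-275 to solvent was below 1 for both genes: 0.646 and 0.775 for Mnt, and 0.712 and 0.793 for Mga. Mxd4 (2.18 ± 0.21) and Mxd1 (0.88 ± 0.18, adjusted p = 0.000364 in limma) were called higher in this fit too, so 2 of 10 members were called in each direction.

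**Figure D2:**
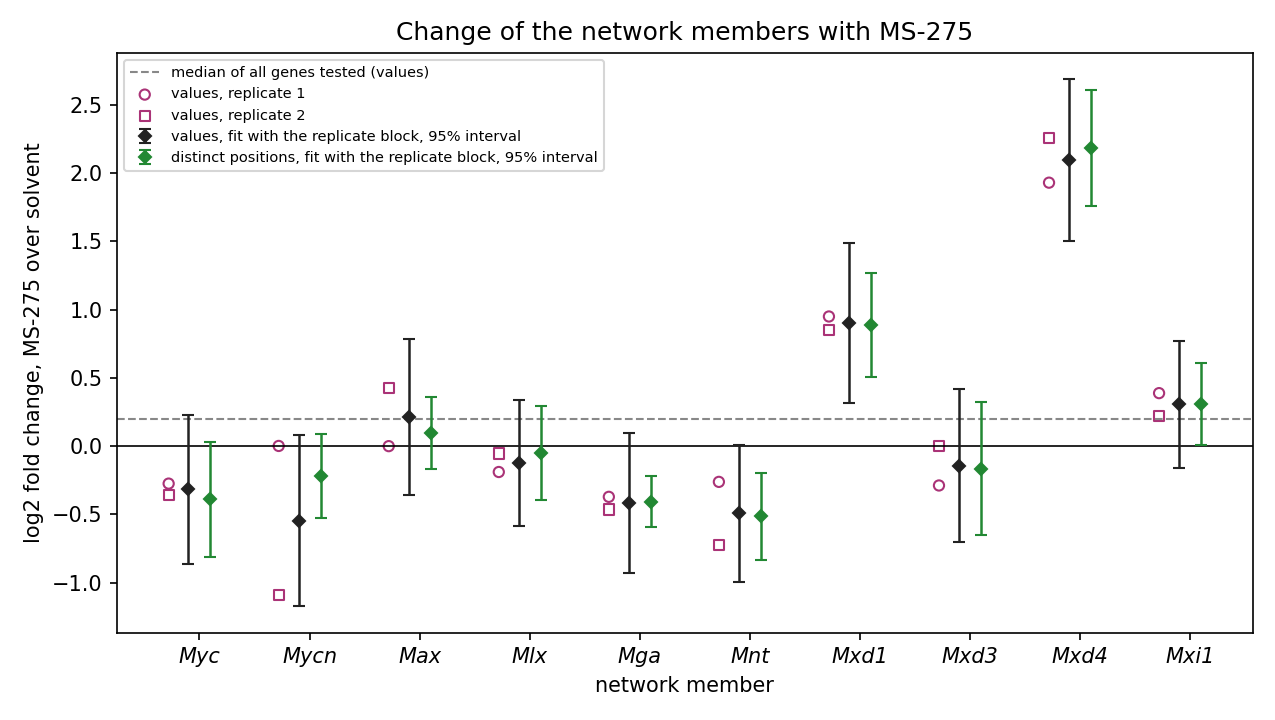
Log2 fold change of MS-275 over solvent for each member: open symbols give the values of each replicate number, black diamonds the fit of the values with the replicate block and green diamonds the fit of distinct positions with the block, with 95% intervals. The dashed line marks the median of all genes tested (0.20), Mxd4 (2.09) and Mxd1 (0.90) lie above it, and Mnt and Mga have green intervals below 0.

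The windows before the annotated starts of these 4 members are shown because their values moved without overlap. The sequences are from RefSeq (GRCm38.p6), which gave windows of 250 bases before to 50 bases after the start for 9 of the 10 members, Myc having none, and the 250 bases before the start are printed 5′ to 3′ on the gene's strand. Capitals mark the E-box CACGTG, the GC box GGGCGG and the CCAAT box CCAAT, each searched on both strands, so that CCGCCC and ATTGG are the last 2 read on the other strand, and overlapping GC boxes run together. Mxd1 lies at chr6:86669160-86669409 (minus strand), Mxd4 at chr5:34187711-34187960 (minus), Mnt at chr11:74830674-74830923 (plus) and Mga at chr2:119896978-119897227 (plus).
Mxd1: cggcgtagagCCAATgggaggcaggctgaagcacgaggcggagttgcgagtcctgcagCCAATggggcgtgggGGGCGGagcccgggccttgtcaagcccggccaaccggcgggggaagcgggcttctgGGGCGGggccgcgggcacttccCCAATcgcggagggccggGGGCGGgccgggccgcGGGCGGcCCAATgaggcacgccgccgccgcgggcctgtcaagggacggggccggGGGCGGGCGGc
Mxd4: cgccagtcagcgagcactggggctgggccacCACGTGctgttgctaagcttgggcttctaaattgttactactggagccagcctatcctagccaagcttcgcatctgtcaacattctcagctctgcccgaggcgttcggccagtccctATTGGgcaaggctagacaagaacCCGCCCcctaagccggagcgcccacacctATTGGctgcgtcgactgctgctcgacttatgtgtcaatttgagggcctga
Mnt: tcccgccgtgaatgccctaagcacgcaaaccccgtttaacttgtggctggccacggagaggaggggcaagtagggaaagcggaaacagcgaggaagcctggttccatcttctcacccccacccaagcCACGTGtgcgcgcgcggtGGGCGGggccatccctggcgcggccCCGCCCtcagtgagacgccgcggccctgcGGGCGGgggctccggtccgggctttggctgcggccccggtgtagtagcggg
Mga: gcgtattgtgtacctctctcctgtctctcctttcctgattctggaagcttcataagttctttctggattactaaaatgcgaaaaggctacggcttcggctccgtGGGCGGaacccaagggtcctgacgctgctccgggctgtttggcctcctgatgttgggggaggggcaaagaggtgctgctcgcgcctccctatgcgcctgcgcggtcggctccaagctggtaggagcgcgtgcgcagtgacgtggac

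The window of Mxd1 held 6 GC boxes and 4 CCAAT boxes and no E-box. The window of Mxd4 held 1 E-box at position -219 from the annotated start, 1 GC box and 2 CCAAT boxes. Mnt had an E-box at position -123, 4 GC boxes (3 of them within the printed bases) and no CCAAT box, and Mga had 1 GC box only. The 9 members had 11 windows, since Mxi1 has 3. An E-box was found in 4 of the 11 (Max, Mxd4, Mnt and Mlx), against 7.15% of 32851 windows of all genes. A GC box was found in 9 of the 11 windows, 3 of them of Mxi1, against 35.7% of all windows, and a CCAAT box in 3, against 37.4%. The members with an E-box included 1 that rose (Mxd4), 1 with lower values (Mnt), and Max and Mlx, whose groups overlapped.

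Myc and Mycn, the activators of the network, were not called in limma with the block on the scaling of the authors. Myc had values of 0.0990 and 0.0418 with solvent and 0.0810 and 0.0315 with MS-275. The replicates of a condition differed more than the conditions did, and within each replicate number the MS-275 value was the lower one. The log2 fold change of Myc was -0.32 ± 0.26 (SE, n = 2 per group; 95% interval -0.86 to 0.23, adjusted p = 0.389 in limma with the block). Distinct positions on Myc exons were few, 160 and 207 with solvent and 90 and 189 with MS-275.

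Mycn, the Myc gene with the higher level in these cells, had values of 0.480 and 1.13 with solvent and 0.480 and 0.529 with MS-275. The value of solvent replicate 2 stood above the other 3, which were close to each other. Within replicate 1 the log2 fold change was 0.00 and within replicate 2 it was -1.09. The fit with the block gave -0.55 ± 0.30 (95% interval -1.17 to 0.08, adjusted p = 0.185 in limma). In the alignments the pattern again differed between the replicates: 1201 and 616 distinct positions for solvent and MS-275 in those deposited with replicate 1, and 943 and 1190 in those deposited with replicate 2. The ratios to the library were 0.632 (0.573 to 0.697) and 1.13 (1.04 to 1.23), so no common direction of Mycn was found. With median-ratio scaling and the block, Mycn was called lower (log2 fold change -0.83, adjusted p = 0.0293 in limma), whereas distinct positions with the block gave -0.22 (adjusted p = 0.241).

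Max, the dimerisation partner of the Myc and Mxd proteins, Mnt and Mga, had values of 0.496 and 0.690 with solvent and 0.496 and 0.927 with MS-275. The groups overlapped, and the log2 fold change of 0.21 ± 0.27 (95% interval -0.36 to 0.78, adjusted p = 0.601 in limma with the block) turned to -0.07 with median-ratio scaling. Distinct positions on Max exons numbered 872 and 890 with solvent and 821 and 981 with MS-275. Mlx, the partner of the glucose-sensing proteins Mlxip and Mlxipl, had values of 0.298 and 0.135 with solvent and 0.260 and 0.130 with MS-275. Its groups overlapped, with a log2 fold change of -0.12 ± 0.22 (95% interval -0.58 to 0.34, adjusted p = 0.719 in the same fit).

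Mxi1 and Mxd3, the other antagonists, also overlapped between the groups. Mxi1 had values of 0.236 and 0.169 with solvent and 0.310 and 0.197 with MS-275, with the higher value in MS-275 within each replicate number. Its log2 fold change was 0.30 ± 0.22 (95% interval -0.16 to 0.77, adjusted p = 0.325 in limma with the block) and came to 0.02 with median-ratio scaling. Mxd3, known for its expression in cycling cells, had values of 0.0700 and 0.0472 with solvent and 0.0564 and 0.0473 with MS-275, with a log2 fold change of -0.14 ± 0.26 (95% interval -0.70 to 0.42, adjusted p = 0.728). The intervals of these members do not show that they stayed the same. Mxd3, Mxi1 and Mlx share 104, 194 and 385 exon bases with Prelid1, Gm10197 and Psmc3ip on the opposite strand. These bases were left out of the counts of positions, but how the deposited values treated them is not given.

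The levels of the members were compared by distinct positions per kb of exon, scaled to the exonic distinct positions of the library (in units of 1e6). Among the solvent libraries Max was highest (62.9 and 67.4), followed by Mga (48.3 and 55.3) and Mycn (52.8 and 43.5), which overlapped. Each position counts once, which holds down well-covered genes: Mycn had 4193 alignments on 1201 positions in solvent replicate 1. On the deposited values the mean with solvent was 0.806 for Mycn, 0.593 for Max and 0.516 for Mga, so the order of these genes depended on the measure. At distinct positions Mlx came next (23.9 and 36.3), then Mnt (22.5 and 11.6) and Mxi1 (13.2 and 13.1), which overlapped. Myc (8.52 and 11.6) and Mxd3 (8.20 and 7.61) followed, apart from each other, and Mxd1 (6.74 and 4.14) and Mxd4 (4.18 and 2.70) closed the order with overlapping levels. With MS-275, Mxd4 reached 17.5 and 13.7 and Mxd1 11.9 and 8.12, so the lowest member with solvent stood above Myc (5.91 and 9.47) and Mxd3 (8.21 and 5.99) in both libraries. Mnt stood at 14.6 and 9.003 with MS-275, and Mxi1 at 15.1 and 17.3.

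The makeup of the antagonists differed between the groups. Of the summed level of Mxd1, Mxd3, Mxd4, Mxi1 and Mnt per kb, Mxd4 made up 7.62% and 6.90% with solvent and 26.0% and 25.3% with MS-275. Mnt made up 41.1% and 29.7% with solvent and 21.7% and 16.6% with MS-275. Mxd1 went from 12.3% and 10.6% to 17.6% and 15.0%, and Mxi1 from 24.0% and 33.4% to 22.5% and 32.0%. On the deposited values the shares were different: Mxd4 made up 4.70% and 3.77% with solvent and 15.7% and 19.2% with MS-275. Mnt made up 21.5% and 34.7% with solvent and 13.3% and 17.3% with MS-275 there, and Mxi1 51.6% and 42.5%, then 50.9% and 41.9%. On both measures the share of Mxd4 was higher and that of Mnt lower in both MS-275 libraries than in both solvent libraries. Mycn held between 79.0% and 86.1% of the summed level of Myc and Mycn per kb in every library. The antagonists summed to 0.894 and 0.711 of Myc and Mycn with solvent and to 1.71 and 0.922 with MS-275, and on the deposited values the same ratio was 0.790 and 0.338 with solvent and 1.09 and 0.841 with MS-275. The MS-275 libraries lay above the solvent libraries on either measure, and the size of the step differed between the replicates with Mycn. These sums over chosen members were given no test, and messenger levels do not give the amounts of the proteins.

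**Figure D3:**
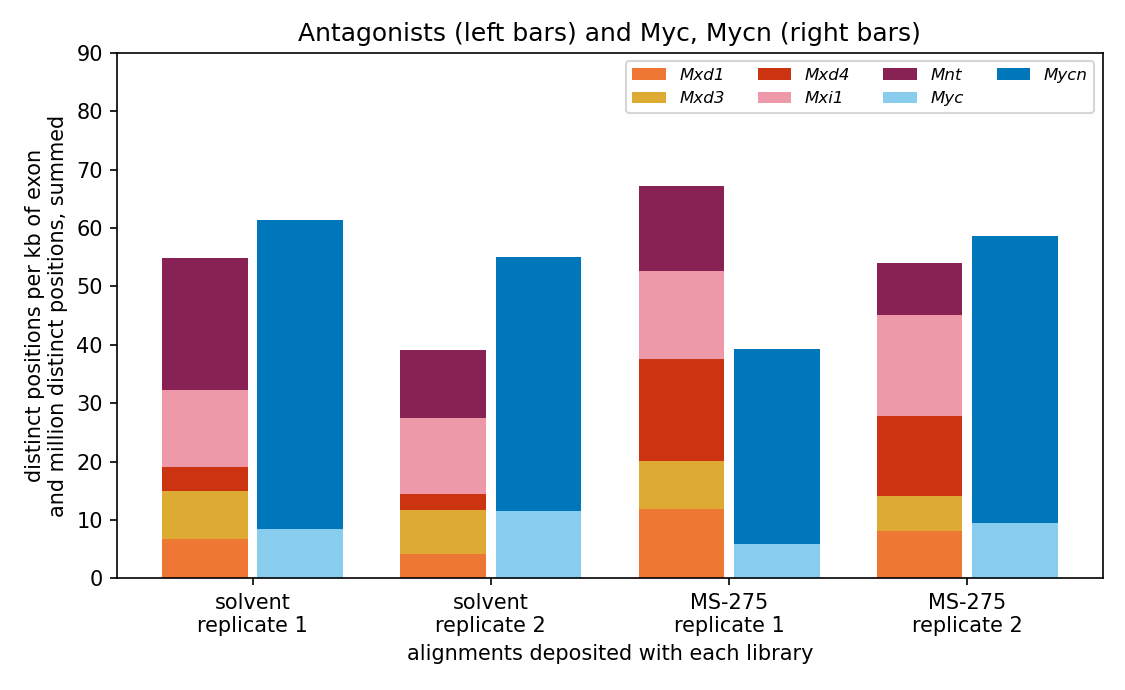
Distinct positions per kb of exon and 1e6 exonic distinct positions, summed over the antagonists (left bars) and over Myc and Mycn (right bars) for the alignments deposited with each library. The part of Mxd4 in the left bars was 7.62% and 6.90% with solvent and 26.0% and 25.3% with MS-275, and Mycn makes up most of each right bar.

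Positions along the genes showed where the reads of the changed members lay (mm9 with GENCODE M1 exons, numbered from the 5′ end). Mxd4 (chr5:34516536-34530369, minus strand) has 6 annotated exons, and its last exon, which holds most of the 3′ untranslated region, held 102 and 64 distinct positions with solvent and 343 and 359 with MS-275. The exons before the last held 10 and 5 with solvent and 37 and 31 with MS-275, so the upstream counts were also higher with MS-275. Mxd1 (chr6:86597038-86619153, minus strand) likewise had 196 and 120 positions in its last exon with solvent and 275 and 253 with MS-275. The exons of Mxd1 before the last held 21 and 7 with solvent and 35 and 25 with MS-275. The last exon held between 88.7% and 94.5% of the exonic positions of these genes in every library, so the upstream counts rest on few positions.

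For Mnt (chr11:74644422-74659227, plus strand), the last exon held 519 and 283 positions with solvent and 270 and 247 with MS-275, and the exons before the last held 202 and 71 and then 108 and 59. The first exon of Mnt held 101 and 74 positions in the alignments deposited with replicate 1 (solvent, then MS-275) and 20 and 14 in those deposited with replicate 2, so its coverage followed the replicate more than the treatment. Mga (chr2:119722964-119795317, plus strand) has 24 exons in the merged annotation. Its last exon held 1774 and 2124 positions with solvent and 1194 and 1681 with MS-275, and the exons before it 3349 and 3458 with solvent and 1767 and 3257 with MS-275. The first exon of Mga held 28 and 15 positions with solvent and 38 and 18 with MS-275, so it did not share the lower counts of the rest of the gene. For Mxi1, whose transcripts start at alternative first exons, the 2 main starts held 10 and 7 (exon 1) and 12 and 18 (exon 2) positions with solvent and 11 and 6 (exon 1) and 9 and 19 (exon 2) with MS-275. These counts were too few to show a switch between starts.

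Of the members, only Max and Mycn had intronic shares without overlap between the groups, and both were lower with MS-275. Of all positions on Max, 55.7% and 40.4% were intronic with solvent and 33.6% and 35.2% with MS-275 (1098 and 603, then 416 and 532). For Mycn the shares were 15.8% and 12.8% with solvent and 6.67% and 9.37% with MS-275. Both genes are named because their groups did not overlap, while the shares of the other members overlapped. How many of all genes lack overlap in this share was not counted, and the shares were given no test. For Mxd4 the intronic share was 26.3% and 15.9% with solvent and 18.1% and 19.3% with MS-275, so the shares overlapped, while intronic positions numbered 40 and 13 with solvent and 84 and 93 with MS-275. For Mxd1 it was 13.9% and 9.93% with solvent and 13.9% and 10.3% with MS-275.

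**Figure D4:**
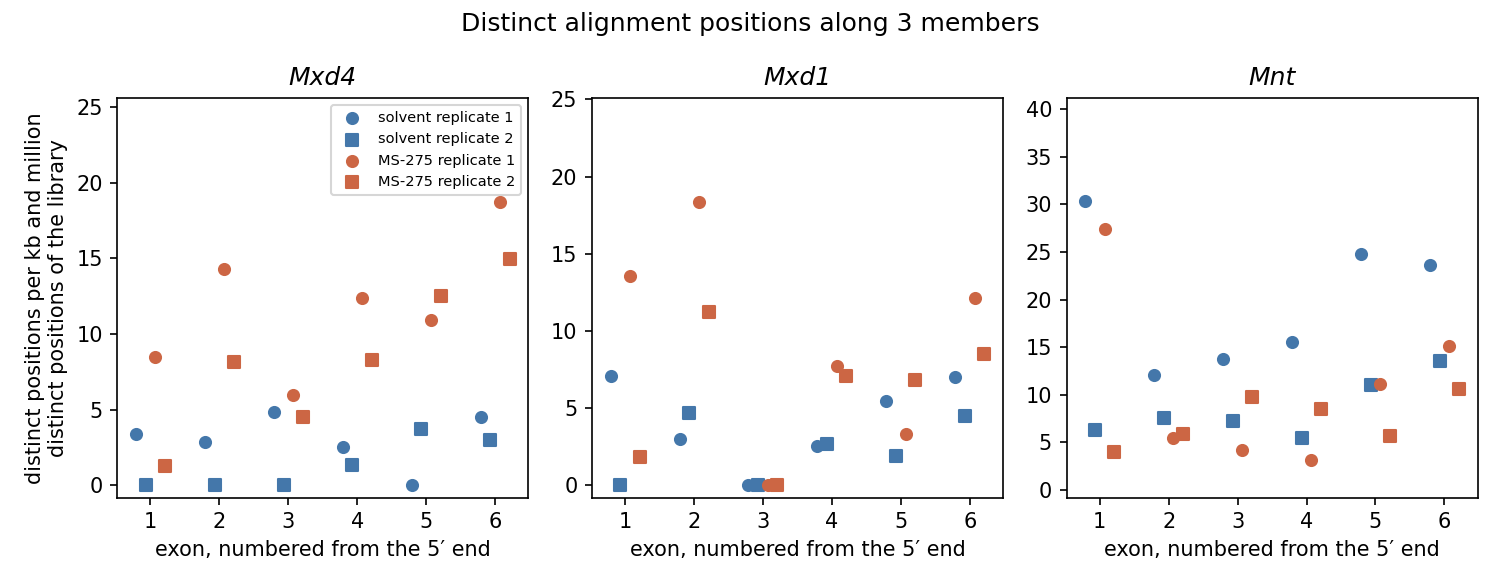
Distinct positions per kb and 1e6 exonic distinct positions of the library on each annotated exon of Mxd4, Mxd1 and Mnt, for the alignments deposited with solvent (blue) and MS-275 (orange), replicate 1 (circles) and replicate 2 (squares). In the last exon the MS-275 points of Mxd4 and Mxd1 lie above both solvent points, while exon 1 of Mnt is high in replicate 1 of both conditions.

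Of the 3 relatives of the network that were tested, 2 rose in the fit with the block, Mlxip and Mlxipl, beside 21.0% of all genes tested. Mlxip, a sensor of glucose metabolites that dimerises with Mlx, had values of 0.111 and 0.0681 with solvent and 0.196 and 0.155 with MS-275 (log2 fold change 0.96 ± 0.23, adjusted p = 0.00496 in limma with the block). Mlxipl, its close relative also known as ChREBP, had values of 0.0478 and 0.0322 with solvent and 0.108 and 0.0571 with MS-275 (0.92 ± 0.26, adjusted p = 0.0167 in the same fit). The MS-275 values of both lay above both solvent values, as they did for 32.3% of all genes tested. Mlxipl was not called with median-ratio scaling (adjusted p = 0.0715 in limma with the block). Mycl1, the third Myc gene, had values of 0.0930 and 0.04999 with solvent and 0.107 and 0.0735 with MS-275, with overlapping groups (0.35 ± 0.24, adjusted p = 0.305). At distinct positions with the block all 3 were called higher, beside 29.7% of all genes. Mycl1 had a log2 fold change of 0.44 there (adjusted p = 0.0366 in limma). Mycs, a retrogene of the Myc family, was listed at 0 in 3 libraries and at 0.00039 in MS-275 replicate 1 and was not tested.

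The partners through which the network acts were described by lists of known roles, with calls from the fit with the block, in which 21.0% of all genes tested were called higher and 6.46% lower. Beside them stand the calls at distinct positions (29.7% and 13.9% of all genes). Some lists also have those with the block and median-ratio scaling (16.4% and 13.8%) or quantile normalization (14.4% and 14.6%). The lists were chosen with earlier results of these data known. Without the block, no gene of these lists was called in the planned fit of the values. Of 22 genes of the Sin3 and NCoR corepressors, 2 rose and 2 fell, and their median log2 fold change was 0.27 against 0.20 for all genes tested. At distinct positions 5 were called higher and 3 lower. Sap130, a Sin3 subunit, rose (0.78 ± 0.24, adjusted p = 0.0246 in limma), as did Hdac1, a class I deacetylase that MS-275 inhibits (0.75 ± 0.25, adjusted p = 0.0343). With median-ratio scaling neither was called (adjusted p = 0.118 and 0.148 in limma). Tbl1xr1 (-1.27 ± 0.22, adjusted p = 0.000649 in limma) and Ncor1 (-0.82 ± 0.25, adjusted p = 0.0209), both of the NCoR complex, fell and stayed called there. Of the 16 Myc coactivators, 1 rose and 2 fell (3 and 5 called at distinct positions), with a median of -0.13. The acetyltransferase Kat2b fell (-1.54 ± 0.29, adjusted p = 0.000928 in limma), as did the helicase Ruvbl1 (-0.77 ± 0.24, adjusted p = 0.0251), and Paf1, a subunit of an elongation complex, rose (1.23 ± 0.27, adjusted p = 0.00312).

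Of 17 genes of Myc turnover and of other Myc interactors, 0 rose and 1 fell, with a median of 0.01 (1 and 3 with an unadjusted p under 0.05 in limma with the block, and 1 and 3 called at distinct positions). The gene that fell was Usp28, a deubiquitinase known for stabilising Myc (-1.11 ± 0.26, adjusted p = 0.00498 in limma with the block). Its values were 0.483 and 0.591 with solvent and 0.308 and 0.196 with MS-275. Of the 11 partners of Mga and Max in the Polycomb complex, 0 were called in either direction, and their median was -0.25. Taking an unadjusted p under 0.05 in limma with the block, 2 of these were higher and 4 lower, and at distinct positions 2 were called higher and 4 lower. At that unadjusted threshold, 5876 of all 20336 genes tested were higher and 2077 lower. Median-ratio scaling gave 0 and 5, and quantile normalization 0 and 4.

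Of 18 germline genes that Max and Mga are known to keep silent in ESC, 9 rose and 2 fell, beside 21.0% and 6.46% of all genes tested, and their median was 0.76. Tex101, a germ cell surface protein, had values of 0.0156 and 0.0081 with solvent and 0.09996 and 0.0702 with MS-275 (2.43 ± 0.29, adjusted p = 2.87e-05 in limma with the block). Stra8, the meiotic gatekeeper induced by retinoic acid, had values of 0.241 and 0.184 with solvent and 0.548 and 0.866 with MS-275 (1.69 ± 0.27, adjusted p = 0.000274). The meiotic cohesin subunit Smc1b (-0.91 ± 0.22, adjusted p = 0.00661 in limma) and the meiotic axis protein Hormad1 (-0.94 ± 0.28, adjusted p = 0.0218) fell. At distinct positions 12 of the 18 were called higher and 2 lower.

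The medians of the genes known to be activated by Myc and of those known to be repressed by Myc with Miz1 lay on opposite sides of the median of all genes, while single genes of both lists lay on either side. Of 52 activated genes, 1 rose and 5 fell (9.62%, against 6.46% of all genes tested), with a median of -0.19. The counts were 2 higher and 15 lower at distinct positions, 0 and 13 with median-ratio scaling, and 1 and 12 with quantile normalization. Ubtf, a factor of ribosomal RNA transcription (-1.20 ± 0.25, adjusted p = 0.00236 in limma with the block), and Pprc1, a coactivator of nuclear genes for mitochondria (-0.84 ± 0.23, adjusted p = 0.0126), fell. E2f2, a cell cycle factor, rose (0.95 ± 0.33, adjusted p = 0.0393) but was not called with median-ratio scaling (adjusted p = 0.083 in limma). In the fit on the scaling of the authors, the other 46 of the 52 were not called.

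Of the 15 genes repressed by Myc with Miz1, 7 rose (46.7%, beside 21.0% of all genes tested) and 1 fell, with a median of 0.69, and at distinct positions 10 were called higher and 1 lower. Cdkn2b, an inhibitor of cyclin D kinases, had values of 0.0067 and 0.0068 with solvent and 0.0704 and 0.0761 with MS-275 (2.74 ± 0.30, adjusted p = 1.37e-05 in limma with the block). Cebpa, a differentiation factor, had values of 0.0176 and 0.0059 with solvent and 0.167 and 0.119 with MS-275 (3.22 ± 0.29, adjusted p = 2.37e-06). Cdkn1b, another inhibitor of cell cycle kinases in the list, fell instead, from 0.329 and 0.678 with solvent to 0.143 and 0.298 with MS-275 (-1.17 ± 0.23, adjusted p = 0.00126). Genes of this list thus moved in both directions, and which of these genes Myc controls in TBV2 cells was not measured.

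**Figure D5:**
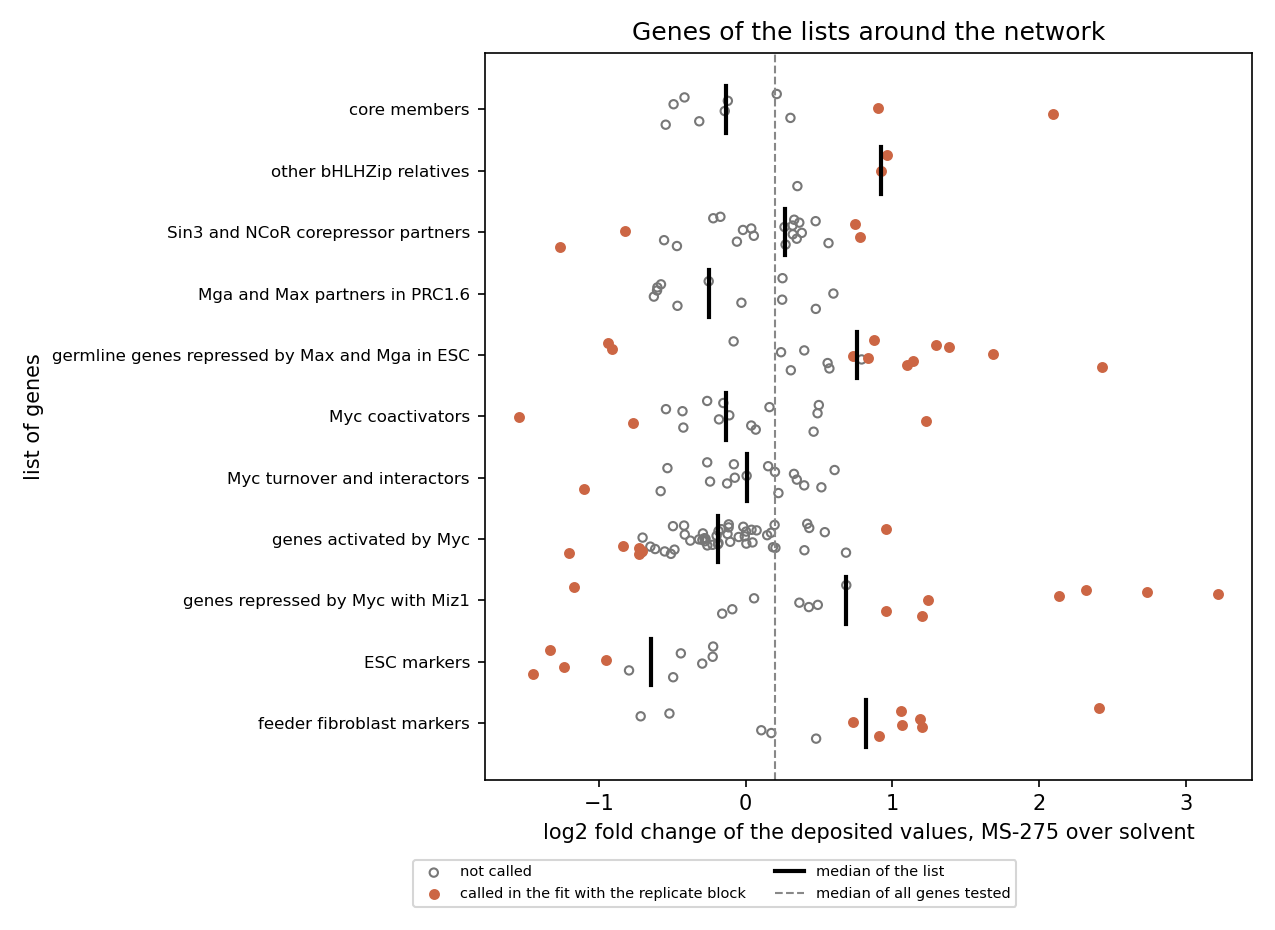
Log2 fold change of MS-275 over solvent for the tested genes of each list, filled where called in the fit with the replicate block, with the median of each list (black bars) and of all genes tested (dashed line, 0.20). The lists of germline genes (median 0.76) and genes repressed by Myc with Miz1 (0.69) lie to the right of the dashed line, and the activated genes (-0.19) and ESC markers (-0.65) to its left.

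Markers of the cell types were counted beside these results. The ESC markers were all present, and 0 of 10 rose and 4 fell (0 and 5 with an unadjusted p under 0.05 in limma with the block, and 0 and 5 called at distinct positions), with a median of -0.65. Their summed value was 6.04 and 23.2 with solvent and 4.82 and 13.6 with MS-275, so it differed more between replicate numbers than between the groups. Tcl1 (-1.24 ± 0.23, adjusted p = 0.00098 in limma) and Utf1 (-1.45 ± 0.33, adjusted p = 0.00402) were the 2 with the smallest p among those that fell. Of 12 fibroblast markers that a feeder layer could bring, 7 rose and 0 fell (7 and 1 with an unadjusted p under 0.05, and 7 and 1 called at distinct positions), with a median of 0.82. Of all genes tested, 21.0% rose and 6.46% fell, and at distinct positions 29.7% and 13.9% were called. With an unadjusted p under 0.05 in limma with the block, 5876 of all 20336 were higher and 2077 lower. Quantile normalization gave 4 markers higher and 2 lower. Their summed value was 0.464 and 0.586 with solvent and 0.845 and 1.10 with MS-275, and no marker was at 0 in every library. Col1a1, a collagen, had values of 0.0146 and 0.0101 with solvent and 0.0681 and 0.110 with MS-275 (2.41 ± 0.32, adjusted p = 5.6e-05 in limma), and Fbln2, a matrix protein, also rose (1.19 ± 0.23, adjusted p = 0.00128). Pdgfrb stands both in this list and among the genes repressed by Myc with Miz1. The part of feeder cells in the rise of Mxd4, Mxd1 and these lists was not tested. In such bulk libraries, fewer cells of a type and less RNA per cell cannot be told apart.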

How the data were processed

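RNA-seq values of 4 libraries were used, 2 with solvent and 2 with 5 µM MS-275 for 24 h. As deposited by the authors, reads had been mapped to mm9, the build also named in the submitters' processing notes, and turned into a normalized expression signal per gene with Genomatix. The aligner, formula and handling of repeated reads are not given in the sources used here, so the depth under each value is unknown. The paper names DMSO as vehicle and the control alignments are labelled ETOH, so the text says solvent. The ratio tables of the authors hold their own comparisons of MS-275 with solvent and were not used.

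The genes reaching 0.001 in 2 or more libraries were fitted on log2(value + 0.005) with lmFit and eBayes with a trend (R 4.3.3, limma 3.58.1), without a block and with the replicate number as a block, and p was adjusted over all genes tested by the Benjamini-Hochberg method. Fold changes on this scale understate those of low genes. Pairing rests on the headers of the deposited value columns, where replicate 1 is named old in solvent and in MS-275 alike. As a check, each library's deviation from its group mean was compared, and libraries of the same number correlated at 0.764 over 20336 genes. The planned fit was the one without the block, but most results give only the blocked value, which changes calls. In the planned fit of the values without the block, no member and no gene of the lists was called. There the adjusted p in limma was, for example, 0.473 for Mxd1, 0.262 for Mlxip and 0.114 for Tbl1xr1. It was 0.0697 for Cdkn2b and 0.0581 for Cebpa. Of the members and relatives, Mxd4, Mlxip and Mlxipl were called at distinct positions without the block (adjusted p = 0.00621, 0.00621 and 0.0247 in limma-voom).

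Alignments of 35 bases were counted once per position and strand on GENCODE M1 exon bases of a single gene, without regard to strand, and genes with 10 or more in 2 or more libraries were tested with limma-voom. Ratios of positions carry exact Clopper-Pearson intervals at 95%. Promoter windows came from RefSeq. For all 11 windows of the members, the 250 bases before the start occurred once on the gene's strand of its chromosome in mm9. Other chromosomes were not searched. Python 3.11.15, numpy 2.4.6, pandas 2.3.3, scipy 1.17.1 and matplotlib 3.10.9 were used, and the fits were tested on simulated data.

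The members and the 11 lists were chosen with earlier results of these data known. All 10 members are described. Of each other list, the genes named are the 2 with the smallest p in the blocked fit in each direction among those called, and all 4 other bHLHZip relatives. Of 189 list entries, 185 matched by symbol, 2 by Entrez identifier and 2 (Nop56 and Gnl3) were not found among the listed symbols. The alternatives tried were a lower (0.001) and a higher (0.02) pseudocount, a filter on the mean value at 0.01 or none, median-ratio scaling, quantile normalization, eBayes without a trend, distinct positions, and each library left out in turn. Counts of all alignments were added after seeing the data.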

Additional observations from a re-analysis of the deposited data

How the results depend on the processing

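In the planned fit of the values without the block no member was called, and the fits below differ from that. With the replicate block 2 members were called higher and 0 lower, and 4277 and 1314 of all genes. With the block and a pseudocount of 0.001 or 0.02, 2 members were higher and 0 lower in each (4216 and 1220, then 3790 and 1158 of all genes). With the block and median-ratio scaling 1 member was higher and 3 lower, Mycn, Mnt and Mga (3344 and 2806 of all genes). With the block and quantile normalization 1 was higher and 2 lower, Mnt and Mga (2936 and 2961 of all genes). Distinct positions gave 1 higher (Mxd4) and 0 lower without the block (2560 and 868 of all genes), and 2 and 2 with it (5044 and 2367). All alignments, chosen after seeing the data, gave 0 and 0 without the block (498 and 24 of all genes) and 2 and 2 with it (4555 and 1781). A mean value of at least 0.01 gave 466 and 65 genes without the block, and pseudocounts of 0.001 and 0.02, no filter, either scaling alone and eBayes without a trend gave 0 and 0, with 2153 to 2970 genes higher and 510 to 1935 lower at an unadjusted p under 0.05 in limma.

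With 1 library left out, members called stayed at 0, and genes called ranged from 0 to 160 higher and 0 to 29 lower (160 and 29 without solvent replicate 1, 76 and 25 without solvent replicate 2). In these fits the lone library of a group was assumed to vary like the other group. The log2 fold change then ranged from -0.94 to 0.30 for Myc, -1.16 to 0.070 for Mycn, -0.24 to 0.66 for Max, -0.40 to 0.12 for Mxd3, -0.015 to 0.62 for Mxi1 and -0.68 to 0.44 for Mlx, so each of these crossed 0. Mxd4 (1.89 to 2.30), Mxd1 (0.78 to 1.02), Mnt (-0.73 to -0.26) and Mga (-0.59 to -0.25) kept their sign. With all libraries, the log2 fold change of Max alone changed sign, to -0.073 with median-ratio scaling and to -0.073 with median-ratio scaling and the block. Mxd4 was called in 7 of 7 blocked fits, Mxd1 in 5, and Mnt and Mga in 4 each. The cause of these differences was not tested. Mxd4, Mxd1, Mxd3 and Myc each had at most 390 distinct positions in a library.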
